A study of Mus musculus with 4 samples.

Results

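The genes described here are 9 T cell genes of mouse liver, picked by symbol out of the 55450 genes listed in the count files: 7 inhibitory receptors or ectoenzymes of T cells (Pdcd1, Lag3, Havcr2, Tigit, Ctla4, Cd160 and Entpd1), the costimulatory receptor Icos and the nuclear factor Tox. Pdcd1 and Tox were picked because their levels were already known to be higher in the libraries from celecoxib-treated mice, so that their difference in that direction is described and supports nothing. All 9 genes had at least 10 UMIs (unique molecular identifiers, each counting 1 captured RNA molecule) in each comparison of all T cells and of CD8 T cells, 7 of 9 did in each comparison of natural killer (NK) cells, and 5 to 7 did in CD4 T cells.

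Nonparenchymal liver cells, left after a slow spin that removed most hepatocytes, were profiled by single-cell RNA sequencing. They came from 4 animals, 1 in each group, all C57B6 of wild type genotype and 18 to 20 weeks old. The control mouse received normal saline, and the other 3 received thioacetamide (TAA), a liver toxin that produces fibrosis, by intraperitoneal injection for 12 weeks. From week 5 of those injections, 1 of these 3 mice was gavaged with celecoxib, an inhibitor of the prostaglandin-producing enzyme COX-2, at 7.5 mg/kg (TAA+C7.5) and another at 30 mg/kg (TAA+C30). With 1 mouse in each group, the effect of a treatment cannot be told apart from a difference between mice or libraries, and no test between groups was possible. Intervals below are exact 95% intervals that cover counting error only. Overlap of such intervals is a description and does not show that levels are equal.

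Activated T cells place inhibitory receptors on their surface, which bind ligands on other cells and dampen signalling from the T cell receptor. T cells that meet antigen for a long time keep several of these receptors at once and express TOX, a nuclear factor needed to maintain that state. The liver holds many resident memory T cells and NK cells, for which some of the same receptors, such as CD160, are ordinary surface molecules.

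T cells were taken as barcodes with at least 2 UMIs of Cd3d, Cd3e and Cd3g together. There were 460 of 5666 kept cells in the control library, 978 of 6460 in TAA, 1814 of 5911 in TAA+C7.5 and 1248 of 6062 in TAA+C30. CD8 cells (a UMI of Cd8a or Cd8b1 and none of Cd4) numbered 198, 486, 1124 and 691 in that order of libraries, CD4 cells (a Cd4 UMI and none of Cd8a or Cd8b1) 83, 180, 113 and 131, and NK cells (at least 2 UMIs of Ncr1 and Klrb1c together, none of the Cd3 genes and no other lineage) 79, 137, 191 and 208. All 11 T cell genes of a check list had UMIs in the T cells of every library. Their summed level was 4580 to 6230 CPM (UMIs per 1000000 UMIs summed over the cells of a type). All 8 genes of the NK check list had UMIs in the NK cells of every library. Both lists include genes that defined the cells (Cd3d, Cd3e and Cd3g for T cells, Ncr1 and Klrb1c for NK cells). Those genes and their part of the sum are no check. The T cell list also held Trac, Trbc1, Trbc2, Cd247 and Lat, which were not used to define the cells. Depth differed between libraries: CD8 cells had a median of 5111.5 UMIs in control, 5336.5 in TAA, 2361 in TAA+C7.5 and 3116 in TAA+C30. Levels are therefore given as CPM, and shares of cells with a UMI are given both as found and after every cell was thinned to 1000 UMIs. Libraries shared 9 to 14 barcodes per pair.

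On GRCm38, Pdcd1 lies at chr1:94038305-94052553, Ctla4 at chr1:60887000-60915832 and Icos at chr1:60977927-61000320, the last 2 as neighbours, while Tox lies at chr4:6686353-6991557 and Lag3 at chr6:124904361-124911705. Promoter sequence was found for 6 of the 9 genes in the RefSeq table used (GRCm38.p6). The 250 bases before the start site are printed for Pdcd1, Ctla4 and Cd160, the members of those 6 that were at least 1.5-fold higher in CD8 cells of TAA+C7.5 than of TAA. Capitals mark the NFAT core GGAAA, read on both strands, which antigen receptor signalling engages. The Pdcd1 window is chr1:94052554-94052803 on the minus strand, that of Ctla4 is chr1:60908775-60909024 on the plus strand (before the RefSeq start, which lies inside the gene span given above) and that of Cd160 is chr3:96829352-96829601 on the minus strand.
Pdcd1: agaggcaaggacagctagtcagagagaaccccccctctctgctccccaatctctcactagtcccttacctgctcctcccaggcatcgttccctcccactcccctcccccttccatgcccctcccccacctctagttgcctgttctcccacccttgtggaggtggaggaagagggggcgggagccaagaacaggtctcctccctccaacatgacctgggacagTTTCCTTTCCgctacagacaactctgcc
Ctla4: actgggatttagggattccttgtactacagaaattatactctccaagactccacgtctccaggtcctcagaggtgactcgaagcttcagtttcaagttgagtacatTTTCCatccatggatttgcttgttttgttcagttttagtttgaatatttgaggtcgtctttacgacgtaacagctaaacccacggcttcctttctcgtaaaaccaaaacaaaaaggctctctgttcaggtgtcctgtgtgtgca
Cd160: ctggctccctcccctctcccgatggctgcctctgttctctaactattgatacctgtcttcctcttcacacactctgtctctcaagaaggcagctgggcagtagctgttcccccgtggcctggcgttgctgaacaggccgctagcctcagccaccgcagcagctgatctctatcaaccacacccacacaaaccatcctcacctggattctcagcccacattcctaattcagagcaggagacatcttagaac
GGAAA occurred 2 times in the Pdcd1 window and 1 time in that of Ctla4, and it was not in the Cd160 window. Of all 32536 distinct windows of this length, 55.7% held it. The AP-1 motif TGANTCA, present in 6.73% of all windows, and the NR4A motif AAAGGTCA, present in 1.35%, were in none of these 3 windows.

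Pdcd1, which encodes the receptor PD-1, differed between all 4 libraries in CD8 cells. Its level there was 9.24 CPM (interval 4.43 to 17.0, 10 UMIs) in control, 45.7 CPM (38.3 to 54.0, 136 UMIs) in TAA, 228 CPM (211 to 245, 710 UMIs) in TAA+C7.5 and 160 CPM (145 to 176, 402 UMIs) in TAA+C30. The 4 intervals did not overlap. TAA stood 4.94-fold above control (2.61 to 10.5). The contrast that chose the gene gave 4.98-fold (4.14 to 6.03) for TAA+C7.5 over TAA and 3.5-fold (2.87 to 4.28) for TAA+C30 over TAA. The higher dose of celecoxib had the lower level, with TAA+C30 at 0.702 of TAA+C7.5 (0.620 to 0.795).

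A larger share of CD8 cells carried Pdcd1 in the celecoxib libraries, whose CD8 cells were sequenced less deeply. The gene was picked for this direction, so nothing is read from it. The share with a Pdcd1 UMI was 3.54% in control, 12.6% in TAA, 30.3% in TAA+C7.5 and 26.5% in TAA+C30. At 1000 UMIs per cell it was 1.52% (0.314 to 4.36), 4.32% (2.69 to 6.53), 18.0% (15.8 to 20.4) and 15.4% (12.8 to 18.4). B cells, with median depths of 3201, 3354, 1643.5 and 2022.5 UMIs, had a Pdcd1 UMI in 0 to 0.271% of cells, and neutrophils, with median depths of 1233 to 2688 UMIs, in 0 to 0.205%. These shares are all below those of CD8 cells. Cells with 5 or more Pdcd1 UMIs numbered 0, 6, 30 and 17 in the same order of libraries.

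In CD4 cells Pdcd1 stood at 7.35 CPM (3 UMIs), 29.5 CPM (33 UMIs), 41.8 CPM (13 UMIs) and 37.6 CPM (21 UMIs). The 3 TAA libraries overlapped in their intervals there. TAA was 4.01-fold above control (1.26 to 20.5), whereas TAA+C7.5 over TAA was 1.42 (0.684 to 2.76) and TAA+C30 over TAA was 1.27 (0.701 to 2.27). NK cells had no Pdcd1 UMI in control, TAA or TAA+C7.5 and 8 UMIs in 4 of 208 cells of TAA+C30.

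**Figure D1:**
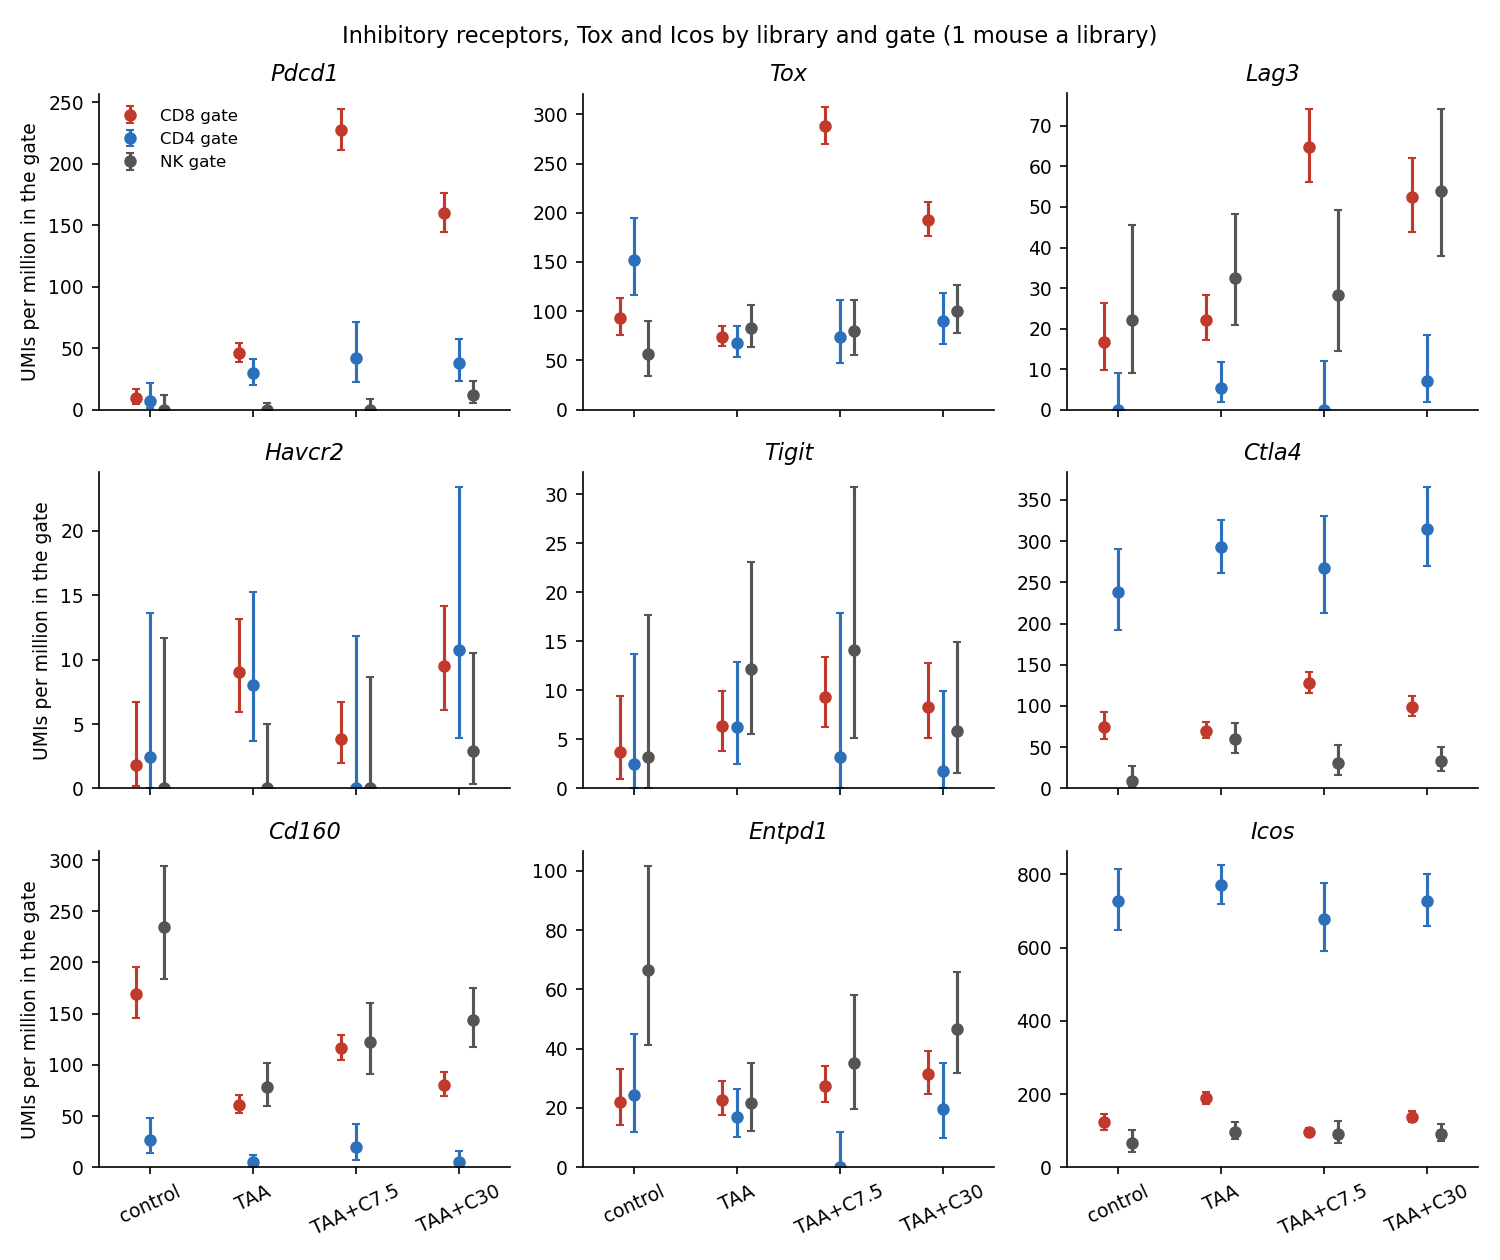
Level of each of the 9 genes (y axis, CPM summed over the cells of a type) in the 4 libraries (x axis), with CD8 cells in red, CD4 cells in blue and NK cells in grey; points are single libraries and bars are exact 95% counting intervals. In CD8 cells, Pdcd1 differs between all 4 libraries and Tox is higher in both celecoxib libraries than in control and TAA, whose intervals overlap, while CD4 and NK cells of the celecoxib libraries lie below CD8 cells for both genes, and Icos and Ctla4 are higher in CD4 cells than in CD8 cells in all 4 libraries.

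Tox encodes a nuclear factor of thymocytes, NK cells and chronically stimulated T cells. Its CD8 level was 93.4 CPM (76.0 to 113) in control, 74.2 CPM (64.7 to 84.7) in TAA, 288 CPM (270 to 308) in TAA+C7.5 and 193 CPM (176 to 211) in TAA+C30. Control and TAA overlapped, and both celecoxib libraries lay above them, at 3.88-fold (3.35 to 4.52) and 2.60-fold (2.22 to 3.07) the level of TAA. The share of thinned CD8 cells with a Tox UMI was 9.60% in control, 9.67% in TAA, 26.1% in TAA+C7.5 and 20.0% in TAA+C30. In B cells the unthinned share was 0.249 to 0.596%.

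The CD4 cells showed another order for Tox. Control had the highest level, at 152 CPM (117 to 195, 62 UMIs), against 68.0 CPM in TAA, 74.0 CPM in TAA+C7.5 and 89.5 CPM in TAA+C30, and the intervals of these 3 overlapped. The 6 Foxp3-positive CD4 cells of control held 32 of its 62 UMIs. Tox was also present in NK cells of every library, at 57.0, 82.5, 79.9 and 100 CPM with overlapping intervals, and in cholangiocytes (Krt19, Krt7 and Epcam), at 27.7, 27.0, 26.2 and 25.2 CPM.

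Lag3 encodes a receptor for MHC class II. In CD8 cells it stood at 16.6 CPM (9.86 to 26.3, 18 UMIs) in control, 22.2 CPM (17.1 to 28.2, 66 UMIs) in TAA, 64.7 CPM (56.1 to 74.3, 202 UMIs) in TAA+C7.5 and 52.5 CPM (43.9 to 62.2, 132 UMIs) in TAA+C30. As for Tox, control and TAA overlapped and both celecoxib libraries were above TAA, at 2.92-fold (2.20 to 3.92) and 2.37-fold (1.75 to 3.23) the level of TAA. In CD8 cells with a Cd8b1 UMI, control and TAA did not overlap for Lag3, at 6.14 CPM (1.99 to 14.3) and 22.1 CPM (16.8 to 28.5), and their log2 ratio was 0.99 against 0.27 in all CD8 cells. After thinning, 1.52%, 3.29%, 7.99% and 6.37% of CD8 cells had a Lag3 UMI. In CD4 cells Lag3 had 0, 6, 0 and 4 UMIs. In NK cells its level was 22.2, 32.5, 28.2 and 53.8 CPM, with overlapping intervals. The gene was not confined to lymphocytes with T or NK markers: plasmacytoid dendritic cells (at least 2 Siglech UMIs) had Lag3 at 323 CPM in control (10 cells), 268 CPM in TAA, 386 CPM in TAA+C7.5 and 263 CPM in TAA+C30, and 60.0% of the 100 such cells in TAA+C30 carried it.

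Ctla4 encodes a receptor that competes with CD28 for CD80 and CD86. In CD8 cells it was at 74.9 CPM (59.5 to 93.1) in control, 69.8 CPM (60.7 to 80.0) in TAA, 128 CPM (115 to 141) in TAA+C7.5 and 99.3 CPM (87.4 to 112) in TAA+C30. TAA+C7.5 was 1.83-fold above TAA (1.54 to 2.17) and TAA+C30 was 1.42-fold above it (1.18 to 1.72). In CD4 cells it was higher, at 238, 292, 267 and 315 CPM, with overlapping intervals in all 4 libraries. In NK cells the order differed from that in CD8 cells: 9.49 CPM (3 UMIs in 1 cell) in control, 59.5 CPM (43.3 to 79.9) in TAA, 30.5 CPM (16.3 to 52.2) in TAA+C7.5 and 33.5 CPM (21.2 to 50.2) in TAA+C30. B cells had 7.65, 9.61, 29.5 and 28.1 CPM, so the gene was also higher in B cells of the celecoxib libraries than of the other 2. After thinning, 0.0748 to 0.392% of B cells had a Ctla4 UMI.

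Icos encodes the costimulatory receptor for ICOSL. In CD8 cells it was lower in both celecoxib libraries than in TAA, where Pdcd1 was higher, whereas TAA against control gave a ratio above 1 for both genes. It stood at 123 CPM (103 to 146) in control, 188 CPM (173 to 205) in TAA, 96.8 CPM (86.2 to 108) in TAA+C7.5 and 138 CPM (124 to 153) in TAA+C30. TAA was the highest library, 1.95-fold above TAA+C7.5 (1.69 to 2.25) and 1.37-fold above TAA+C30 (1.19 to 1.57). In CD4 cells the level was 728, 771, 679 and 727 CPM, with overlapping intervals. Among all T cells together Icos was 400 CPM in TAA and 215 CPM in TAA+C7.5, while CD4 cells made up 18.4% of T cells in TAA and 6.23% in TAA+C7.5. T cells with no UMI of Cd4, Cd8a or Cd8b1 made up 30.8% in TAA and 31.0% in TAA+C7.5. Their Icos level ranged from 370 to 686 CPM over the 4 libraries and was lowest in TAA+C7.5. The part of the mix of cells in the Icos difference was not tested. The endothelial gate of TAA+C7.5 held 31 Icos UMIs in 9 of 67 cells. Of those UMIs, 27 lay in 5 cells that also had Gata3, and 5 of the 9 cells had no UMI of Ptprb, Cdh5 or Kdr, so this level is not read as endothelial.

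Cd160 encodes a receptor for the herpesvirus entry mediator on NK cells and intestinal and liver T cells. It was the only one of the 9 genes that was at least 1.5-fold lower in TAA than in control in both CD8 and NK cells. In CD8 cells it was at 169 CPM (146 to 196) in control, 61.1 CPM (52.6 to 70.7) in TAA, 117 CPM (105 to 129) in TAA+C7.5 and 80.7 CPM (70.0 to 92.6) in TAA+C30. NK cells had the same order of control and TAA, with 234 CPM (184 to 294), 78.5 CPM (59.6 to 101), 122 CPM (91.3 to 160) and 144 CPM (117 to 175). At 1000 UMIs per cell the NK log2 ratio of TAA to control was -0.54, against -1.46 from all UMIs, and no longer passed 1.5-fold.

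The CD8 difference between control and TAA lay in cells without Cd8b1. Those cells, which had Cd8a UMIs alone, were 60 of 198 CD8 cells in control (30.3%) and 61 of 486 in TAA (12.6%), and they held Cd160 at 517 CPM (434 to 611) and 145 CPM (106 to 194). They were 20.2% of CD8 cells in TAA+C7.5 and 14.3% in TAA+C30, at 159 and 157 CPM. These shares depend on depth and were not thinned, since a cell can lack a Cd8b1 UMI when it has few UMIs. Median depth without and with a Cd8b1 UMI was 4417 and 5487 UMIs in TAA, and 1951 and 2464 in TAA+C7.5. In CD8 cells with a Cd8b1 UMI the level was 55.2 CPM (40.3 to 73.9) in control and 51.3 CPM (43.1 to 60.7) in TAA, which overlap, against 109 CPM (96.4 to 122) in TAA+C7.5 and 70.6 CPM (60.0 to 82.6) in TAA+C30. The order of Pdcd1 and Tox in the 3 TAA libraries was the same in CD8 cells with and without a Cd8b1 UMI. Pdcd1 in cells with Cd8b1 was 8.59, 44.6, 212 and 150 CPM over the 4 libraries.

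Havcr2 (TIM-3) and Tigit, a receptor for the poliovirus receptor family, were sparse in T cells. CD8 cells had 2, 27, 12 and 24 Havcr2 UMIs, equal to 1.85, 9.07, 3.85 and 9.54 CPM, and 4, 19, 29 and 21 Tigit UMIs, equal to 3.70, 6.38, 9.29 and 8.35 CPM. After thinning, Havcr2 was in 0.275 to 1.01% of CD8 cells and in 0 to 1.08% of neutrophils, and these ranges overlap. Neutrophils had Havcr2 at up to 13.0 CPM, so this overlap cannot decide whether the CD8 share is background. The level was 0 to 1.09 CPM in B cells and 0 to 2.91 CPM in NK cells. The part of myeloid RNA in the CD8 level was not tested. The highest Havcr2 levels were in myeloid cells: conventional dendritic cells had 296, 150, 145 and 139 CPM and macrophages 85.9, 76.4, 67.4 and 54.0 CPM. Tigit had 0 UMIs in neutrophils of all 4 libraries and differed between libraries by less than its counting error in CD8 cells.

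Entpd1 (CD39) splits extracellular ATP on the way to adenosine. It was at 22.2, 22.8, 27.6 and 31.4 CPM in CD8 cells, with overlapping intervals. Its main cells were neutrophils, at 619, 415, 499 and 205 CPM, and it was also present in macrophages at 88.8, 96.1, 65.9 and 62.8 CPM. In neutrophils the TAA+C30 level (189 to 223) lay below those of the other libraries. CD4 cells of TAA+C7.5 had 0 Entpd1 UMIs in 113 cells, with an exact interval of up to 11.9 CPM. That interval overlaps the one of TAA at 17.0 CPM (10.2 to 26.5, 19 UMIs), but the interval of their ratio, 0 to 0.771, lies below 1. Myeloid markers summed to 466 CPM in CD4 cells of TAA and 41.8 CPM in those of TAA+C7.5, and neutrophil markers to 292 and 54.7 CPM. Without barcodes that met another lineage's gate, Entpd1 was at 12.2 CPM (6.10 to 21.8, 11 UMIs) and 0 (up to 12.3 CPM). No ratio interval was computed for those cells, and the part of RNA from other cells was not tested.

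**Figure D2:**
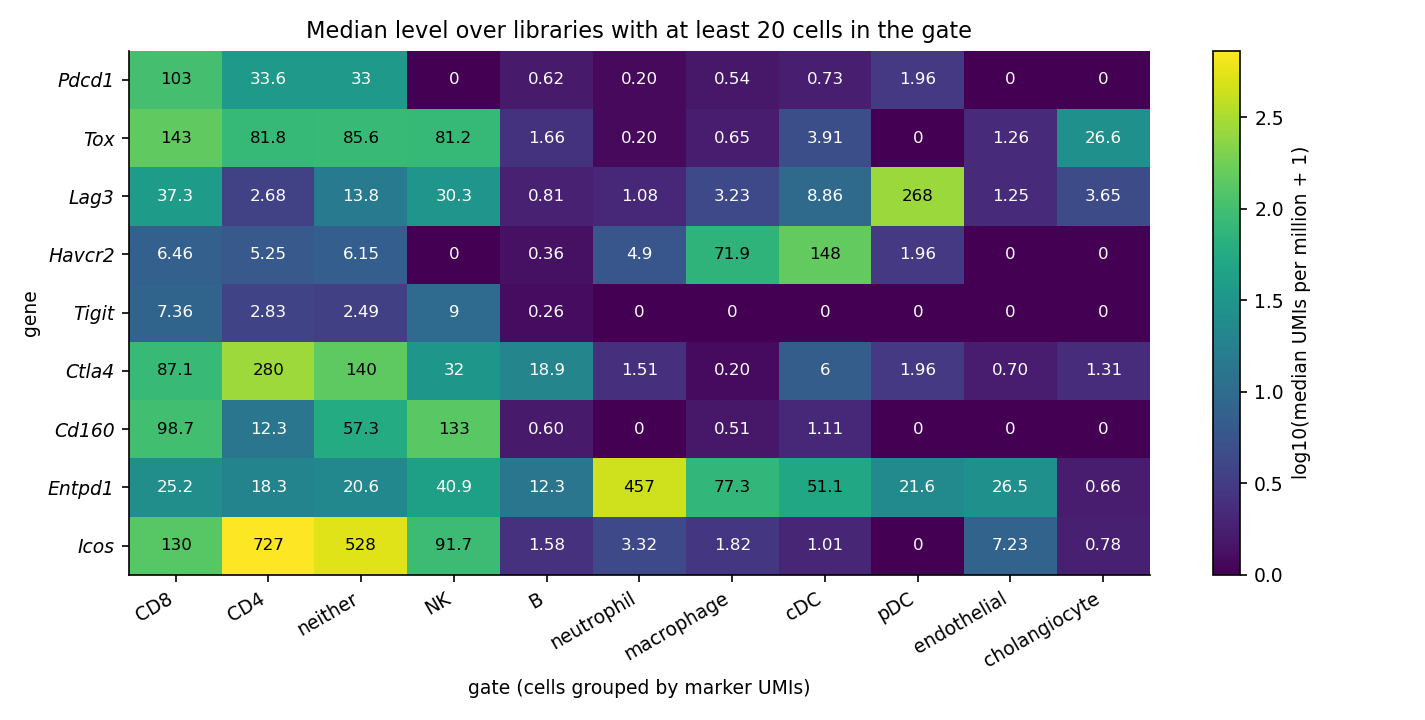
Median level of each gene (rows) over the libraries with at least 20 cells of a type (columns), printed in CPM and coloured on a log10 scale. Pdcd1, Cd160, Icos and Tigit are lymphocyte genes here, whereas Entpd1 is highest in neutrophils (457), Havcr2 in conventional dendritic cells (148) and Lag3 in plasmacytoid dendritic cells (268).

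Counted together, 1 of the 9 genes was at least 1.5-fold higher and 1 at least 1.5-fold lower in all T cells of TAA than of control (Pdcd1 and Cd160), on the scale of log2(CPM + 10). Over all 13385 genes measured in that comparison, 3.22% were higher and 5.06% lower. In TAA+C7.5 against TAA, 4 of 9 were higher (Pdcd1, Tox, Lag3 and Cd160) and 1 lower (Icos), where 0.984% and 2.37% of all genes were. In TAA+C30 against TAA, 3 of 9 were higher (Pdcd1, Tox and Lag3) and 0 lower, where 0.784% and 1.37% of all genes were. The median log2 ratio of the 9 genes in these 3 comparisons was 0.09, 0.23 and 0.20, beside medians of -0.04, -0.01 and -0.05 over all genes. Since 2 of the genes were picked for this direction, nothing is read from those counts or medians. Between the celecoxib doses, Icos was 1.53-fold higher (1.41 to 1.66) in all T cells of TAA+C30. By log2(CPM + 10), 1.45% of all genes were at least 1.5-fold higher there and 0.934% lower. None of the 9 genes was lower by that measure, but Pdcd1 was just short of it, at -0.582. Its plain ratio was 0.648 (0.577 to 0.727). The ratio was 0.705 (0.640 to 0.777) for Tox, 0.688 (0.590 to 0.801) for Cd160 and 0.804 (0.652 to 0.990) for Lag3.

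In CD8 cells, 2 of 9 genes were higher in TAA than control (Pdcd1 and Havcr2) and 1 lower (Cd160), beside 3.54% and 8.54% of all genes. The Havcr2 ratio rests on 27 against 2 UMIs, and its log2 value went from 0.69 to 0.53 without barcodes that met another lineage's gate, under the 1.5-fold line. The median log2 ratio of the 9 genes was 0.26, beside -0.09 over all genes. Against TAA, 5 were higher in TAA+C7.5 (Pdcd1, Tox, Lag3, Ctla4 and Cd160) and 1 lower (Icos), beside 1.54% and 3.1%, and 3 were higher in TAA+C30 and 0 lower, beside 1.19% and 2.14%. The medians of the 9 genes were 0.78 and 0.35, beside -0.0044 and -0.04 over all genes. Pdcd1 and Tox, picked for being higher in the celecoxib libraries, are part of these counts and medians, so nothing is read from them. None of the 9 passed 1.5-fold in either direction between the celecoxib doses, where 1.63% of all genes were higher and 1.28% lower. Both celecoxib comparisons use the same TAA library, so their shared direction is not 2 independent observations.

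**Figure D3:**
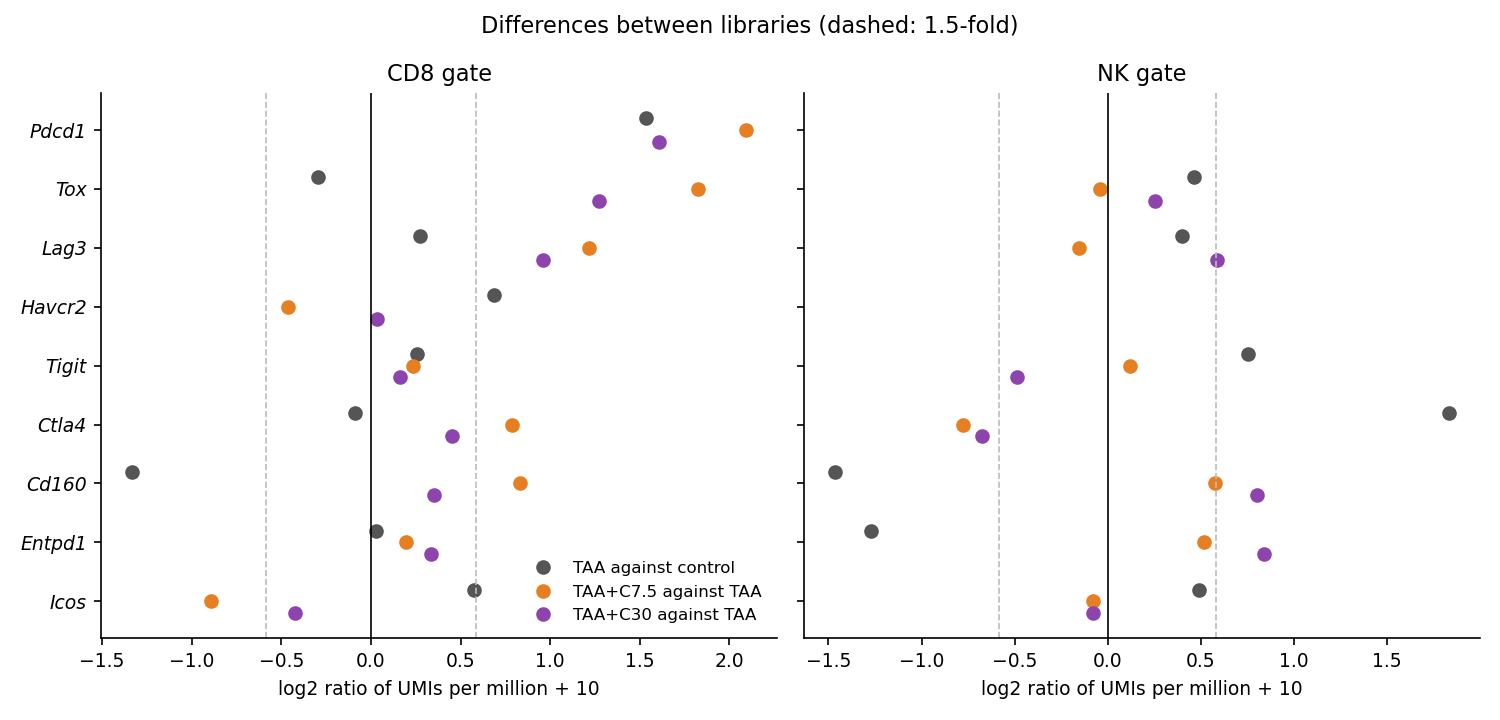
Log2 ratio of each gene (rows) between libraries in CD8 cells (left) and NK cells (right), with 10 CPM added to both levels; dashed lines mark 1.5-fold, and genes with under 10 UMIs in both libraries together are not drawn. Pdcd1, Tox and Lag3 lie right of the line in CD8 cells of both celecoxib libraries, and Ctla4 lies left of it in NK cells of both.

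In NK cells 7 of the 9 genes had enough UMIs. TAA had 2 higher than control (Ctla4 and Tigit) and 2 lower (Cd160 and Entpd1), beside 12.1% and 18.5% of all genes. TAA+C7.5 had 0 higher than TAA and 1 lower (Ctla4), beside 8.76% and 9.83%. TAA+C30 had 3 higher than TAA (Entpd1, Cd160 and Lag3) and 1 lower (Ctla4), beside 4.99% and 6.81%. The median log2 ratios of these 7 genes were 0.47, -0.04 and 0.25, beside -0.11, 0.0032 and -0.05 over all genes. None of the 4 genes that passed 1.5-fold in TAA+C30 did so at 1000 UMIs per cell: the log2 ratio to TAA went from 0.84 to 0.02 for Entpd1, from 0.80 to 0.50 for Cd160, from 0.59 to 0.36 for Lag3 and from -0.68 to 0.021 for Ctla4. Between the celecoxib doses, 1 gene was higher in TAA+C30 (Lag3, 37 against 12 UMIs) and 1 lower (Tigit, 4 against 6 UMIs), beside 7.77% and 9.9% of all genes. In CD4 cells the counts were 1 higher (Pdcd1) and 2 lower (Tox and Cd160) in TAA against control, beside 16.2% and 11.3% of all genes, 1 higher (Cd160, 6 against 6 UMIs) and 1 lower (Entpd1) in TAA+C7.5 against TAA, beside 7.47% and 14.2%, and 0 and 0 in TAA+C30 against TAA, beside 4.7% and 9.38%. Entpd1 was higher in CD4 cells of TAA+C30 than of TAA+C7.5 (11 against 0 UMIs) and none was lower, beside 12.4% and 11% of all genes. Neutrophil markers summed to 15041 CPM in these CD4 cells of TAA+C30 and to 54.7 CPM in those of TAA+C7.5. Without barcodes that met another lineage's gate, the sums were 5951 and 56.8 CPM, and Entpd1 had 8 and 0 UMIs. The part of neutrophil RNA in this Entpd1 difference was not tested.

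**Figure D4:**
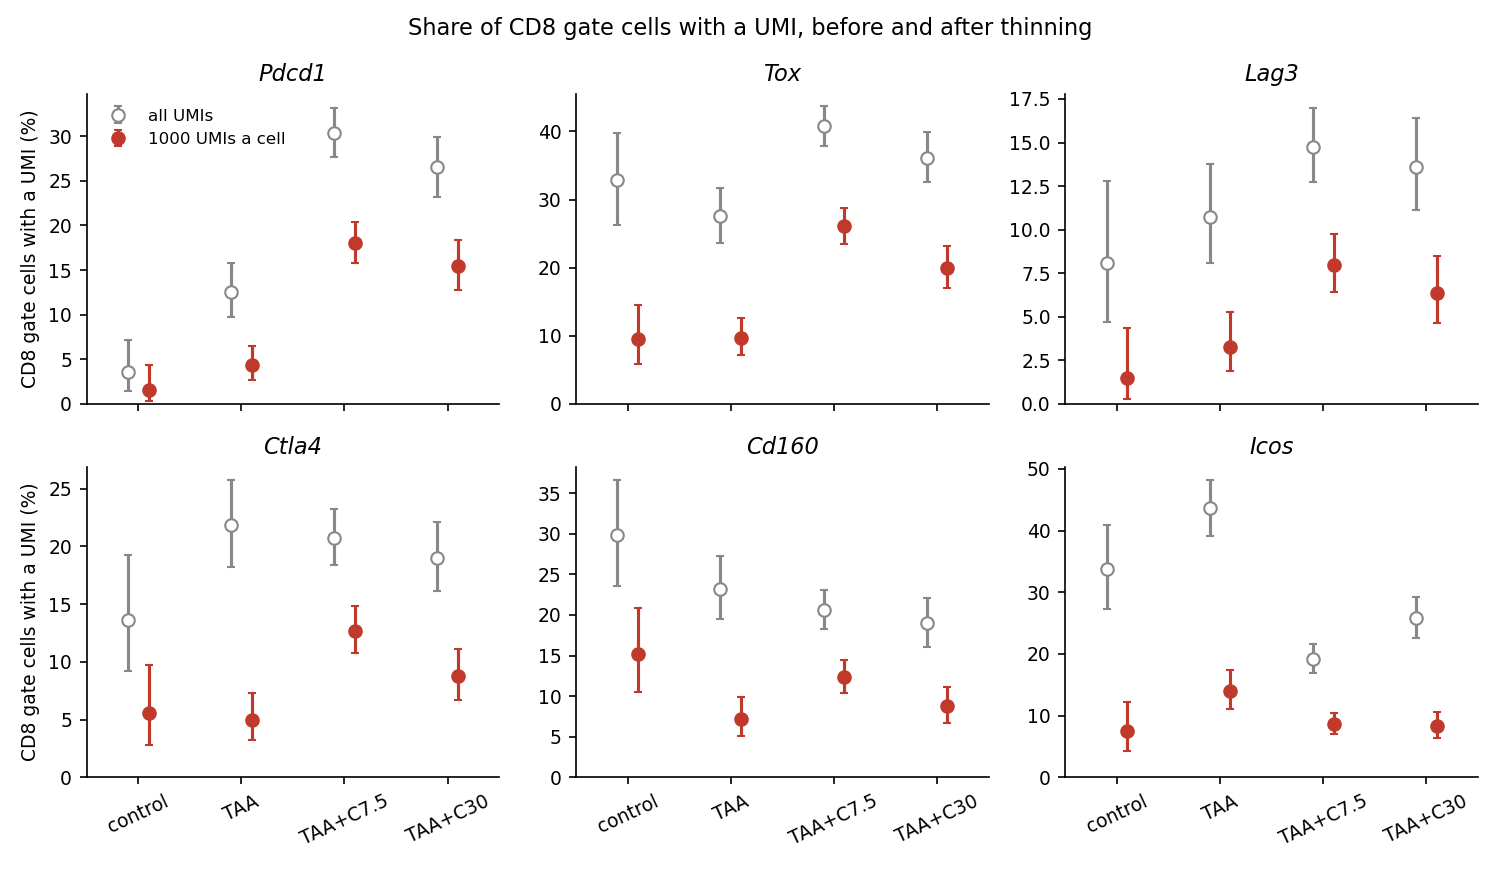
Share of CD8 cells with at least 1 UMI of each gene (y axis, percent) in the 4 libraries (x axis), from all UMIs (open grey points) and after thinning each cell to 1000 UMIs (red points), with exact 95% binomial intervals. Ctla4 is carried by 20.7% of CD8 cells in TAA+C7.5 and 21.8% in TAA from all UMIs, but by 12.7% and 4.94% at equal depth.

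CD8 cells carrying several of the genes at once were also counted. Of thinned CD8 cells, 0.505% had 3 or more of the 9 genes in control, 3.09% (1.74 to 5.04) in TAA, 8.45% (6.86 to 10.3) in TAA+C7.5 and 6.81% (5.03 to 8.99) in TAA+C30. These counts include Pdcd1 and Tox, which were picked for being higher in the celecoxib libraries, so nothing is read from their order. Of the other 7 genes, 3 or more were found in 0.505% (0.0128 to 2.78), 0.617% (0.127 to 1.79), 1.19% (0.637 to 2.03) and 0.444% (0.0917 to 1.29) of these cells, and 2 or more in 5.56% (2.81 to 9.72), 5.76% (3.86 to 8.22), 9.18% (7.53 to 11.1) and 5.78% (4.14 to 7.81). Without Pdcd1 and Tox the intervals of all 3 TAA libraries overlapped in both counts, which were added after the values were seen. The share with 2 or more of the other 7 genes was highest in TAA+C7.5, and the overlap does not show that the shares are equal. Pdcd1 and Tox were both found in 0.505%, 1.44%, 7.71% and 8.0% of these cells. In TAA+C7.5, 42.9% (35.8 to 50.1) of thinned cells with Pdcd1 had Tox, against 22.4% (19.7 to 25.3) of those without Pdcd1. In TAA+C30 those shares were 51.9% (41.9 to 61.8) and 14.2% (11.4 to 17.3), and in TAA 33.3% (14.6 to 57.0) and 8.60% (6.22 to 11.5).

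Cells with a Pdcd1 UMI were described against the other CD8 cells of the same library. They numbered 61 in TAA, 341 in TAA+C7.5 and 183 in TAA+C30 (7 in control), with lower median depths (4272, 2028 and 2603 UMIs) than cells without (5580, 2555 and 3497). Lag3 was 5.90-fold, 4.12-fold and 5.26-fold as high in the cells with Pdcd1 in these 3 libraries, and Ctla4 was 4.22-fold, 2.89-fold and 2.64-fold as high. Tox2, a relative of Tox, was 4.84-fold, 5.72-fold and 5.26-fold as high, and Tnfrsf9 (4-1BB), a costimulatory receptor of recently activated T cells, 4.81-fold, 4.45-fold and 5.61-fold. Gzmk, a granzyme of memory-like CD8 cells, was 3.55-fold, 3.16-fold and 2.52-fold as high.

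Some genes were lower in the cells with Pdcd1. Tcf7, the factor of naive and stem-like T cells, was at 54.2, 33.5 and 14.04 CPM in cells with Pdcd1 and at 277, 304 and 279 CPM in cells without, for TAA, TAA+C7.5 and TAA+C30. Il7r, the interleukin-7 receptor, was at 37.2, 17.9 and 65.0 CPM against 339, 494 and 351 CPM. Klf2, a factor of resting T cells, was also lower but still present, at 393, 308 and 427 CPM against 1453, 1875 and 1781 CPM. These genes were picked after their values were seen. Icos did not follow Lag3 and Ctla4, with ratios of 1.21 (0.922 to 1.57), 0.669 (0.50 to 0.885) and 0.803 (0.604 to 1.05). Havcr2 had ratios of 2.59 (0.857 to 6.65), 2.49 (0.665 to 9.31) and 2.44 (0.970 to 5.91), whose intervals include 1. Intervals of Entpd1 in TAA (0.402 to 2.28) and of Tigit in TAA+C30 (0.954 to 6.63) also included 1. Both genes had intervals above 1 in the remaining TAA libraries.

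**Figure D5:**
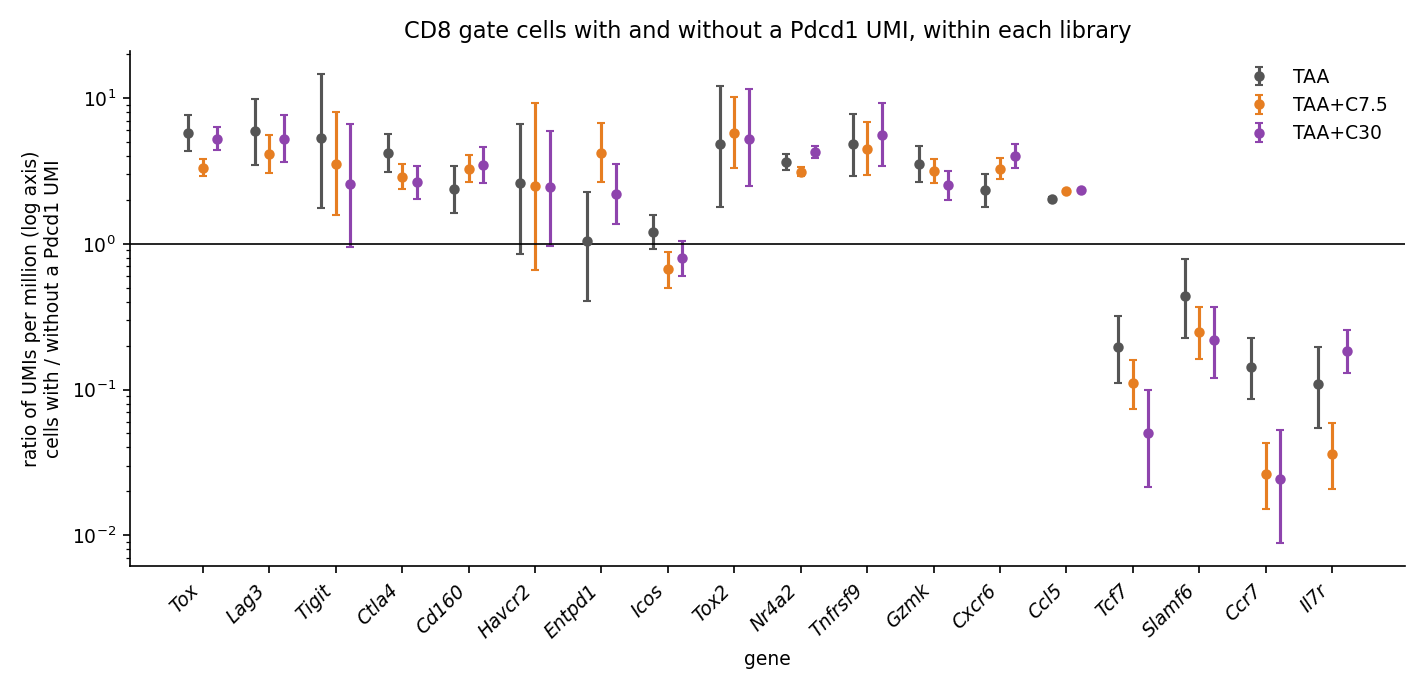
Ratio of the level in CD8 cells with a Pdcd1 UMI to that in CD8 cells without one (y axis, log scale) for selected genes (x axis) in the 3 TAA libraries, with exact 95% counting intervals. Tox, Lag3, Ctla4, Cd160, Tox2, Nr4a2 and Tnfrsf9 lie above 1 in all 3 libraries, and Tcf7, Slamf6, Ccr7 and Il7r lie below 1.

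Other genes of these pathways were read in CD8 cells from lists. Of 20 transcription factors of activation and exhaustion, 2 were at least 1.5-fold higher in TAA+C7.5 than in TAA (Nr4a2 and Tox2) and 4 lower (Zeb2, Id3, Runx3 and Myb), where 1.54% of all genes were higher and 3.1% lower. In TAA+C30 against TAA 1 was higher (Nr4a2) and 1 lower (Nr4a3), where 1.19% and 2.14% of all genes were. These shares of all genes hold for each list of genes in CD8 cells below. Nr4a2, an orphan nuclear receptor induced by T cell receptor signalling and by handling of cells, was at 508, 426, 996 and 658 CPM over the 4 libraries. Tox2 was at 0.924, 7.72, 21.1 and 13.1 CPM (1, 23, 66 and 33 UMIs). Of 12 other inhibitory receptors or ligands, none was higher and 2 lower in TAA+C7.5 against TAA (Lair1 and Klrg1), and 1 was higher in TAA+C30 (Cd200r1, at 47.3 against 20.1 CPM). Median log2 ratios were 0.16 and 0.06 for the factors and 0.06 and -0.10 for the receptors in these 2 comparisons, beside -0.0044 and -0.04 for all genes.

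Of 16 effector genes, 3 were higher (Ccl3, Gzmk and Xcl1) and 3 lower (Gzmb, Gzmm and Cd44) in TAA+C7.5 against TAA, and in TAA+C30 3 were higher (Ccl3, Gzma and Ccl4) and none lower, beside the 1.54% and 3.1%, and the 1.19% and 2.14%, of all genes. The list had median log2 ratios of 0.14 and 0.38, beside -0.0044 and -0.04 over all genes. Gzmb, the cytotoxic granzyme, was at 843 CPM in control, 377 CPM in TAA, 184 CPM in TAA+C7.5 and 436 CPM in TAA+C30. Within each library, Gzmb was higher in CD8 cells with a Pdcd1 UMI than in those without. The ratio was 1.93 (1.65 to 2.26) in TAA, 2.23 (1.88 to 2.63) in TAA+C7.5 and 1.46 (1.28 to 1.66) in TAA+C30. In control it was 1.98 (1.43 to 2.68), from 44 Gzmb UMIs in only 7 cells with Pdcd1. Of 10 costimulatory receptors other than Icos, none passed 1.5-fold in either celecoxib comparison.

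Genes whose levels followed Pdcd1 over the 16 combinations of library and cell type (CD8, CD4, other T and NK cells in 4 libraries) were Tspan3 (Pearson r = 0.84), Cdk6 (0.84), Myo5a (0.83), Wdr89 (0.83) and Serpinb6a (0.82). For Tox they were Hspa4l (0.76), Cdk6 (0.71), Adgrg1 (0.67), Wdr89 (0.67) and Lzic (0.65). Pdcd1 and Tox had r = 0.63 with each other. These 16 points share libraries and depths and are not independent, so the values are descriptions.

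Ligands of the receptors were found in other cells of the same libraries. Cd274, which encodes PD-L1, was at 177, 259, 150 and 111 CPM in neutrophils and at 206, 105, 115 and 132 CPM in B cells. Pdcd1lg2, which encodes PD-L2, was at 25.3, 66.3, 86.9 and 74.2 CPM in NK cells. Cd86, a ligand of CTLA-4 and CD28, was at 397, 278, 169 and 187 CPM in conventional dendritic cells. Icosl was at 66.8, 74.9, 102 and 102 CPM in conventional dendritic cells. Nectin2, a member of the family that TIGIT binds, was at 170, 173, 132 and 135 CPM in cholangiocytes, and Lgals3, which encodes a galectin reported to bind LAG-3, at 1088, 1570, 1778 and 2151 CPM in macrophages. Of these, Lgals3 had its lowest level in control and its highest in TAA+C30, and Cd86 in dendritic cells was higher in control and TAA than in the celecoxib libraries.

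RNA of other cell types in the CD8 gate differed between libraries. All 4 neutrophil markers had UMIs there in every library, with summed levels of 820, 223, 62.8 and 1394 CPM, as did all 5 myeloid markers, at 225, 494, 189 and 674 CPM. Endothelial markers summed to 272, 145, 15.1 and 1.59 CPM, with Ptprb and Cdh5 at 0 in TAA+C30, B cell markers to 23.1, 25.5, 53.5 and 23.4 CPM, and hepatocyte markers to 185, 60.1, 53.8 and 14.7 CPM. The 3 cholangiocyte markers summed to 2.77, 6.04, 27.2 and 9.93 CPM, the same order of libraries as Pdcd1, with Krt19 at 0 in control, Krt19 and Krt7 in TAA and Krt7 in TAA+C30. Cholangiocytes themselves had 0 Pdcd1 UMIs in all 4 libraries and Tox at no more than 27.7 CPM, below every CD8 level. When barcodes that also met another lineage's gate were left out, leaving 173, 461, 1089 and 672 CD8 cells, Pdcd1 was 9.71, 50.7, 239 and 165 CPM, Tox was 91.7, 81.7, 302 and 201 CPM and Lag3 was 17.3, 24.6, 67.0 and 55.1 CPM. Havcr2 was then at 1.08, 6.05, 1.75 and 8.47 CPM. Genes induced by dissociation and handling (Fos, Jun, Hspa1a and 7 others) summed to 5378, 3892, 5260 and 5490 CPM in CD8 cells, so the sum was higher in both celecoxib libraries than in TAA. Of these 10 genes, 2 passed 1.5-fold higher (Hspa1a and Hspa1b) and 1 lower (Atf3) in each of these comparisons. Their part in the levels of Pdcd1, Tox or Nr4a2 was not tested.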

How the data were processed

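Barcoded 3' libraries of 4 livers were read from the deposited 10x matrices of UMI counts per gene, which the authors made with Cell Ranger 3.1.0 against mm10, per the submitters' processing notes. All else was computed here in Python 3.11.15 with scipy 1.17.1 and Scanpy 1.11.5. Barcodes under 200 genes or over 20% mitochondrial UMIs were left out, and Scrublet (expected rate 5%) then removed 122, 52, 172 and 116 doublets (0.799 to 2.83%). The kept cells had 24675999, 47347437, 17083203 and 26626414 UMIs. Cell types were gated by marker UMIs. Sums of UMIs per gate were scaled to CPM. A gene was measured where the sum over the compared libraries reached 10 UMIs, and passed at 1.5-fold on log2(CPM + 10). Intervals are exact Poisson (levels), Clopper-Pearson (shares) and conditional binomial (ratios). Molecules of 1 library are not replicates, so intervals cover counting error only, and no p was computed. Scripts' statistics were tested on simulated data.

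The members and gene lists were chosen with earlier results of these data known. The genes named are the 9 members, up to 3 members of each list with the highest or lowest log2 ratio, and the 5 genes of highest Pearson r with Pdcd1 and with Tox among genes of at least 200 UMIs, leaving out mitochondrial, ribosomal, haemoglobin, immunoglobulin, Xist and Y-linked genes and uncharacterised gene models. The splits by Cd8b1 and by a Pdcd1 UMI, the other genes named there or among ligands, and list members named beyond 3, were chosen after their values were seen. Alternatives covered doublets, filters, gates, scaling, the added CPM and thinning. A split of CD8 cells and 1 gene list are not reported here. Text tables holding the same counts were not used here.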

Additional observations from a re-analysis of the deposited data

Results flagged for a closer look

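Ctla4 passed 1.5-fold in opposite directions in 2 cell types under the same comparison, TAA+C7.5 against TAA. Its log2 ratio was 0.78 in CD8 cells (398 against 208 UMIs) and -0.78 in NK cells (13 against 44 UMIs). The difference between the cell types was not tested, since each group is 1 mouse.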

How the results depend on the processing

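Each mouse group is 1 library, so differences between mice cannot be told apart from treatment, and genes with few UMIs (Havcr2, Tigit, and most genes in CD4 and NK cells) are limited by depth. No paired analysis was possible because each group has 1 sample and no test was made. The count of members at least 1.5-fold higher in T cells of TAA than of control was 1 as reported, 2 with a T gate of at least 1 UMI, 2 with a T gate of at least 3 UMIs, 2 with the mean over cells of each cell's CPM and 3 with 1 CPM added. The count lower in TAA+C7.5 than in TAA was 1 as reported, and 2 with a T gate of at least 1 UMI and with 1 CPM added. The other 4 counts stayed within 1.5 times of the reported one in every alternative. Among single-gene log2 ratios that passed 1.5-fold as reported, 362 recomputed values lay within the counting interval, 23 lay outside it in the same direction and 1 reversed: Ctla4 in NK cells of TAA+C30 against TAA was 0.021 at 1000 UMIs per cell. Lag3 in CD8 cells of TAA against control was 0.27 as reported and 0.99 with a CD8 gate by Cd8b1. Cd160 in CD8 cells of TAA against control ranged from -1.69 to -0.09, the latter with a CD8 gate by Cd8b1. In CD8 cells the log2 ratio to TAA ranged from 2.02 to 2.29 (TAA+C7.5) and 1.53 to 1.82 (TAA+C30) for Pdcd1, from 1.57 to 1.94 and 1.16 to 1.37 for Tox and from 1.09 to 1.88 and 0.88 to 1.72 for Lag3. The causes of these shifts were not tested.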

Other observations

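In the control library, CD8 cells without a Cd8b1 UMI differed from those with one in other members besides Cd160, a comparison chosen after its values were seen. Lag3 was at 48.7 CPM (25.9 to 83.3, 13 UMIs) in cells without Cd8b1 and at 6.14 CPM (1.99 to 14.3, 5 UMIs) in cells with it. Ctla4 was at 142 CPM (101 to 195) and 52.8 CPM (38.2 to 71.1). In the TAA library Lag3 was at 22.6 CPM (9.09 to 46.6) and 22.1 CPM (16.8 to 28.5), and Ctla4 at 29.1 CPM (13.3 to 55.2) and 74.6 CPM (64.6 to 85.7). Trac, the constant gene of the alpha chain of the T cell receptor, was present in both groups of cells of the control library, at 667 and 428 CPM. Trdc, that of the delta chain, had 5 and 1 UMIs. Whether these groups differ between mice was not tested, since each library is 1 mouse.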
